A study of Mus musculus with 9 samples.

Results

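The histone genes examined here were the rows of the count matrix whose symbols follow the naming of the clustered histone genes and of the linker histones (H1f, H2ac, H2bc, H3c and H4c with a number, or the older Hist1h to Hist4h names). Of the 25757 entries, 70 were chosen in this way after 2 pseudogene symbols had been left out. They comprised 11 H1, 18 H2A, 17 H2B, 12 H3 and 12 H4 genes, and 50 of the 70 had enough reads to enter the test. By the chromosomes of the GRCm38.p6 RefSeq table, 54 of the 68 located genes lie on chromosome 13 and 10 on chromosome 3, and the others (H1f0, H1f7, H1f8 and H1f10) are on chromosomes 15 and 6.

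Replication-dependent histone genes encode the H2A, H2B, H3 and H4 proteins that wrap DNA into nucleosomes, and the H1 linker proteins that bind DNA between them. Most of these genes lack introns and are transcribed mainly in S phase, when new DNA has to be packaged, and their mRNAs end in a conserved stem-loop in place of a poly(A) tail. The stem-loop is bound by SLBP and, with the U7 small nuclear ribonucleoprotein, directs cleavage of the 3' end. T cells that leave quiescence after stimulation of the T cell receptor and CD28 enter S phase and divide repeatedly. Not every gene chosen by symbol belongs to this group, since H1f0 (H1.0) and H1f10 (H1x) are linker histones expressed independently of replication from polyadenylated mRNAs, and H1f6, H1f7, H1f8, H1f9, H2ac1 and H2bc1 are known from germ cells.

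RNA was sequenced from naive CD4+ T cells of wild-type mice, taken from spleens and lymph nodes of normal animals (male BALB/c in the study's animal section), activated on plates coated with antibodies to CD3 and CD28 and collected on day 3 (72 h). The 3 groups received acacetin, a plant flavone, at 0, 5 or 10 μM, with 3 biological replicates each and 9 libraries in all, and antibody stimulation was common to all groups, so no unstimulated cells were available for comparison. The labels do not say whether the replicates came from separate mice, so p-values measure the spread between these samples only. Total RNA was isolated, libraries were made with a TruSeq RNA kit, and the methods speak of mRNA as the input of reverse transcription. Neither labels nor methods state outright whether poly(A)+ RNA was selected. The levels of mRNAs without a poly(A) tail may therefore be limited by the library rather than by the cells, and this was not tested. Totals ranged from 19664981 to 24410715 counts per library.

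All 10 markers of CD4+ T cells on the list used here exceeded 10 counts per 1000000 (CPM) in every library, while the summed level of 3 B cell markers was 0.57 to 1.44 CPM and that of 2 neutrophil markers 0 to 0.16 CPM. A pair of libraries stood apart by transcripts of other tissues. In 5 μM replicate 2, 4 liver genes summed to 20.3 CPM against 1.49 to 2.03 CPM in the other 8 libraries, and in 10 μM replicate 1, 4 lung genes summed to 67.6 CPM against 3.87 to 6.45 CPM. The same 10 μM library held 11.3 CPM of 3 macrophage markers and 12.996 CPM of 2 haemoglobin genes, against at most 1.71 and 0.95 CPM in the others. CD8 genes summed to 6.45 to 9.13 CPM, NK cell genes to at most 0.25 CPM, and genes of testis and oocyte, the source of several histone members, to at most 0.28 CPM. Where leaving out both libraries changed the call of a histone gene that was called or among the highest of its class, or moved its log2 fold change against 0 μM by more than its SE, both values are given.

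The stem-loop is shown first because it is the element that sets these mRNAs apart and because its stem letters separate H4 genes from the other classes. Transcripts of GENCODE M21 (build GRCm38) could be matched for 68 of the 70 genes, and 41 of them held a hairpin with a stem of 6 bases, a loop of 4 bases, GG at the start and TT at the start of the loop. Of 21901 protein-coding genes in the same annotation, 130 (0.59%) held such a hairpin. Capitals mark the stem.
H1, H2A, H2B and H3, 24 genes: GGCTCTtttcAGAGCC
H1, H2B and H3, 6 genes: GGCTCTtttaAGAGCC
H2ac20 alone: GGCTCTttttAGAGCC
H4, 6 genes: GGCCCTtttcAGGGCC
H4c9 and H4c14: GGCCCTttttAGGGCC
H4c2 and H4c11: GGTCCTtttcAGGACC
All 31 hairpins in H1, H2A, H2B and H3 transcripts had 1 stem, and all 10 in H4 transcripts had 1 of the other stems. No such hairpin was found in the transcripts of H1f0 and H1f10. For H2ac10, H2ac15, H3c10 and H3c13 no hairpin was found either, but many annotated histone transcripts stop at or near the coding sequence, so its absence from a transcript model says nothing about the mRNA.

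In 22 of the 41 genes the annotated transcripts ended within 100 bases after the stem-loop, and in 19 at least 1 transcript ran on for more than 100 bases, as an mRNA that uses a downstream poly(A) site would. The read-through was 840 bases in H1f2, 1214 bases in H2bc9, 752 bases in H3c4, 377 bases in H3c15 and 385 bases in H4c11. Among the tested genes, the median level per length was 4.76 CPM per kb of longest transcript for the 18 genes that ended within 100 bases and 1.22 CPM per kb for the 15 that ran on, so the genes with short annotated 3' ends did not have the lower levels per length. The divisor contains the extension itself. Per gene, without division by length, the medians were 2.53 and 1.49 CPM.

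RefSeq promoter windows (250 bases before to 50 bases after the start, GRCm38.p6) were found for 62 genes in 63 entries. Windows were searched on both strands for the letters TATAAA (the TATA box), CCAAT (the CCAAT box), ATTTGCAT (the octamer bound by Oct1, the product of Pou2f1, in H2B promoters) and AAACACA (the H1 box). TATAAA was present in 54.0% of the histone entries and 13.6% of the 32851 promoters searched, CCAAT in 82.5% and 37.4%, ATTTGCAT in 20.6% and 1.7%, and AAACACA in 14.3% and 7.2%. The promoters searched did not cover every chromosome. CCAAT was found in all 17 H2A, 15 H2B and 10 H3 windows but in 3 of 11 H4 windows. The octamer was found in 7 of 15 H2B and 6 of 17 H2A windows and in no H1, H3 or H4 window. Several H2A and H2B windows overlap on opposite strands, and both strands were searched. The octamers of H2ac1, H2ac8 and H2ac12 are the same bases as those of H2bc1, H2bc8 and H2bc12. These counts and percentages therefore include some bases more than once, and H2A and H2B windows are not independent. As examples of genes that fell, the windows of H1f0, H2bc12 and H3c3 are shown with these letters in capitals.
H1f0, chr15:79027962-79028261, + strand: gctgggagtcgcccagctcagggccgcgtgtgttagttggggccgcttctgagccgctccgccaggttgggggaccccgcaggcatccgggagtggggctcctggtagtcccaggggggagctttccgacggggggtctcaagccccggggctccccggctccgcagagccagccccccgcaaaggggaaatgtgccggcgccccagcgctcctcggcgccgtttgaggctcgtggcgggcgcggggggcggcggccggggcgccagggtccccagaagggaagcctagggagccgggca
H2bc12, chr13:22035571-22035870, + strand: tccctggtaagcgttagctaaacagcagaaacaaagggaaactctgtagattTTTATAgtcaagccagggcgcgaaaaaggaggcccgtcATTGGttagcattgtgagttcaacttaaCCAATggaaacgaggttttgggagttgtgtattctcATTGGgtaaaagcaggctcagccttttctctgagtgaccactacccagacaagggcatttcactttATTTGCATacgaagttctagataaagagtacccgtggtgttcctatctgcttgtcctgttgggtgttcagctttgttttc
H3c3, chr13:23745472-23745771, - strand: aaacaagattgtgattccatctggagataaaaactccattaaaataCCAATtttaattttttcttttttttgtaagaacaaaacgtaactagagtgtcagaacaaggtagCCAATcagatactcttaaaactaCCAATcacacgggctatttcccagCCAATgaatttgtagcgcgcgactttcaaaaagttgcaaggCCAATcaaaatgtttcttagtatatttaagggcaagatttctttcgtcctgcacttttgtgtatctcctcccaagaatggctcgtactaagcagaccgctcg
None of the 4 motifs was found in the H1f0 window. The H2bc12 window held 1 TATAAA (on the opposite strand), 3 CCAAT and 1 octamer, and the H3c3 window held 5 CCAAT. The H2bc12 window overlaps that of H2ac12, which lies on the other strand. This TATAAA reads in the direction of H2ac12 and is the same stretch as the TATAAA of the H2ac12 window. The CCAAT and octamer letters are shared by these windows too. A match describes the letters of a window and does not show that a factor was bound there.

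H1f0 accounted for most of the reads assigned to these genes. Its share of their summed CPM was between 53.8% and 66.5%. Its level was 237, 235 and 237 CPM at 0 μM, 168, 169 and 169 CPM at 5 μM, and 151, 143 and 148 CPM at 10 μM. The 3 groups did not overlap, and the spread within each was small. In bulk RNA, fewer cells expressing a gene and less RNA per cell cannot be told apart. Against 0 μM the change was -28.7% at 5 μM (log2 fold change -0.49 ± 0.03 (SE), adjusted p = 6.73e-10) and -37.7% at 10 μM (-0.68 ± 0.03, adjusted p = 1.72e-12), by edgeR's quasi-likelihood test with Benjamini-Hochberg adjustment over 12185 genes. It was also lower at 10 μM than at 5 μM (-0.19 ± 0.03, adjusted p = 3.66e-04). Per kb of its longest transcript, H1f0 averaged 89.5 CPM, against 16.1 CPM per kb for H2ac7, the highest of the other histone genes.

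Among all 50 tested genes, 7 fell and none rose at 5 μM, and 6 fell and 1 rose at 10 μM, at an adjusted p under 0.05 (called below). Over all tested genes 33.1% were called at 5 μM (16.3% higher and 16.8% lower) and 47.3% at 10 μM (23.8% higher and 23.6% lower). Of the 50 histone genes, 7 (14%) were called at each concentration, though not the same 7. Without H1f0 and H1f10, 6 of 48 (12.5%) were called at each. Most histone genes were low, and the background at their levels was lower. Among 3900 tested genes within the mean level of the tested histone genes other than H1f0 (0.380 to 12.4 CPM), 15.8% were called at 5 μM and 27.8% at 10 μM. Between 10 and 5 μM, H1f0 and H4c11 were lower at 10 μM and no histone gene was higher, against a background of 9.0% (4.92% higher and 4.09% lower). The 5 μM and 10 μM comparisons share the 0 μM libraries, so they are not independent of each other.

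At 5 μM 9 of the 50 genes, and at 10 μM 10, had an unadjusted p under 0.05. The median log2 fold change of the 50 genes was -0.20 at 5 μM and -0.14 at 10 μM, beside 0.00 over all tested genes at either concentration, and 37 and 33 of the 50 were negative. The median SE was 0.27 at 5 μM and 0.26 at 10 μM, so a shift of this size in a single gene was within its error. By class, the medians at 5 μM were -0.34 for H1, -0.21 for H2A, -0.21 for H2B, -0.23 for H3 and -0.01 for H4. At 10 μM they were -0.14, -0.11, -0.22, -0.15 and -0.18, in the same order. No p-value is given for these medians, because the genes of a list are not independent replicates.

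**Figure D1:**
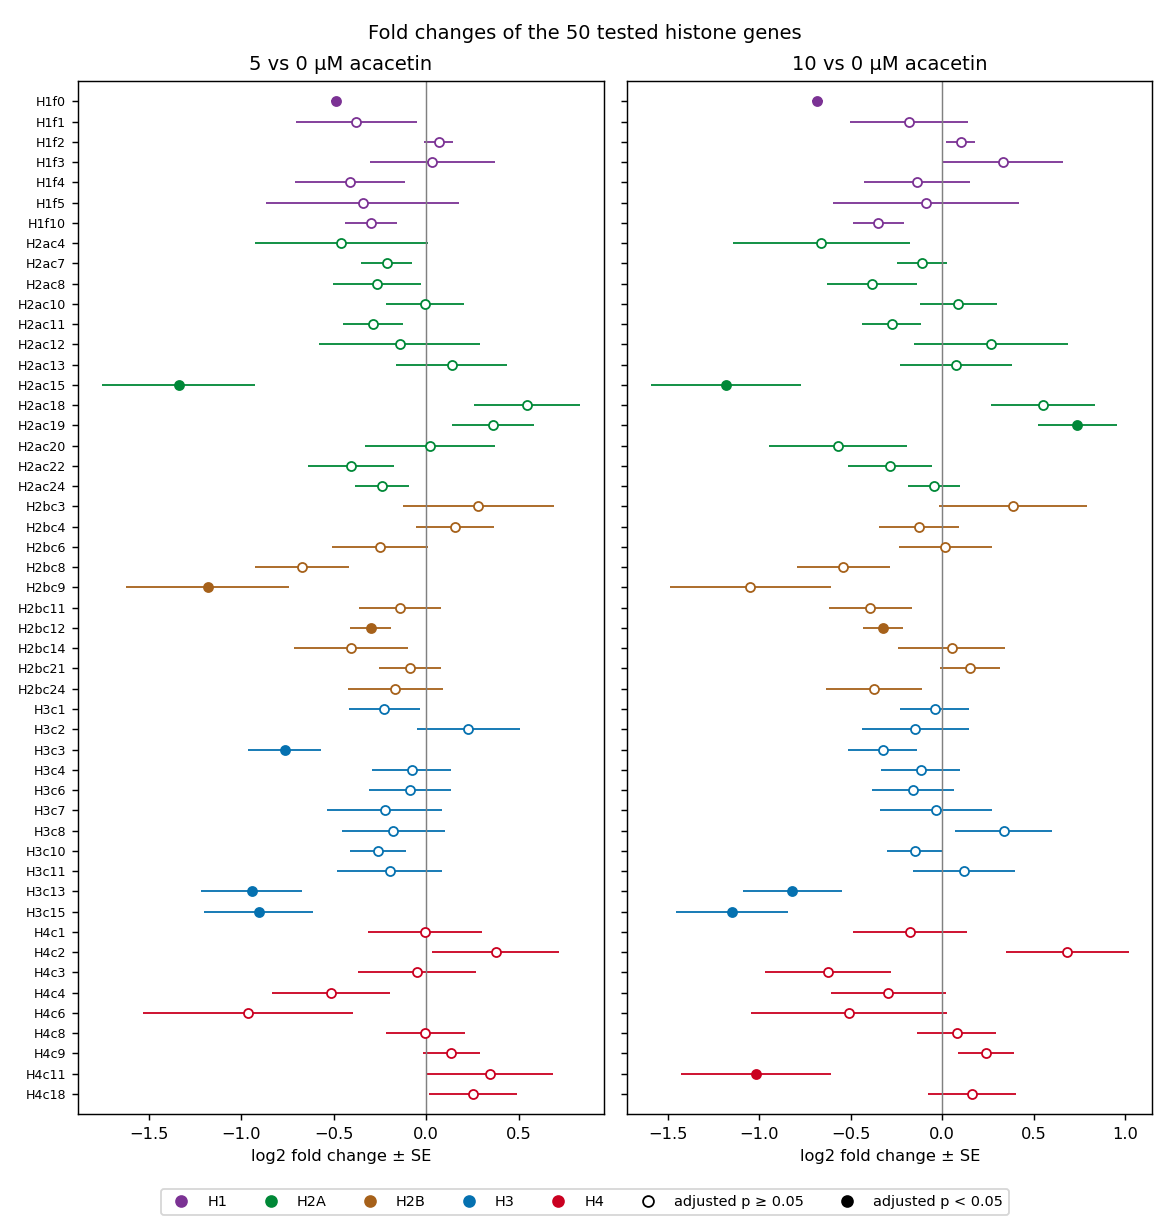
Log2 fold change (± SE) of each of the 50 tested histone genes at 5 μM (left) and 10 μM (right) acacetin against 0 μM, coloured by class, with filled points for an adjusted p under 0.05. Filled points lie left of 0 apart from H2ac19 at 10 μM, and H1f0 has by far the shortest error bar.

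Counts that are not whole numbers show that reads were shared out between entries, as happens with near-identical genes, and 58 of the 70 genes had fractional counts in at least 1 library. Sums over a class do not depend on how reads were shared out within it. Summed H2B was 25.6, 28.0 and 26.8 CPM at 0 μM, 24.2, 22.03 and 22.6 CPM at 5 μM, and 23.0, 22.7 and 24.6 CPM at 10 μM, and every acacetin library lay below every 0 μM library. The H3 sum was 25.6, 28.8 and 29.6 CPM at 0 μM, 23.6, 23.9 and 20.3 CPM at 5 μM, and 23.4, 25.7 and 24.9 CPM at 10 μM. Its 5 μM libraries lay below all 0 μM libraries, and at 10 μM replicate 2 was level with the lowest of them.

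For H2A the sum was 32.9, 43.4 and 40.2 CPM at 0 μM, 32.6, 39.4 and 36.9 CPM at 5 μM, and 40.9, 36.7 and 38.9 CPM at 10 μM, with overlapping groups. H4 genes summed to 13.98, 16.8 and 15.8 CPM at 0 μM, 16.2, 16.8 and 14.7 CPM at 5 μM, and 17.8, 14.9 and 15.3 CPM at 10 μM, again with overlap. The 9 H1 genes other than H1f0 and H1f10 gave 14.4, 17.0 and 15.8 CPM at 0 μM, 15.8, 15.5 and 15.4 CPM at 5 μM, and 16.6, 17.1 and 15.9 CPM at 10 μM, and these groups overlapped too. Without H1f0 and H1f10, the 68 other genes together were 113, 134 and 128 CPM at 0 μM, 112, 118 and 109.8 CPM at 5 μM, and 122, 117 and 119.6 CPM at 10 μM, with overlapping groups. Their mean was 125.0 ± 11.1 CPM (SD, n = 3) without acacetin, 113 ± 4.02 CPM with 5 μM and 119 ± 2.30 CPM with 10 μM. Replicate 1 at 0 μM was the lowest of its group in the H2A, H2B, H3 and H4 sums.

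**Figure D2:**
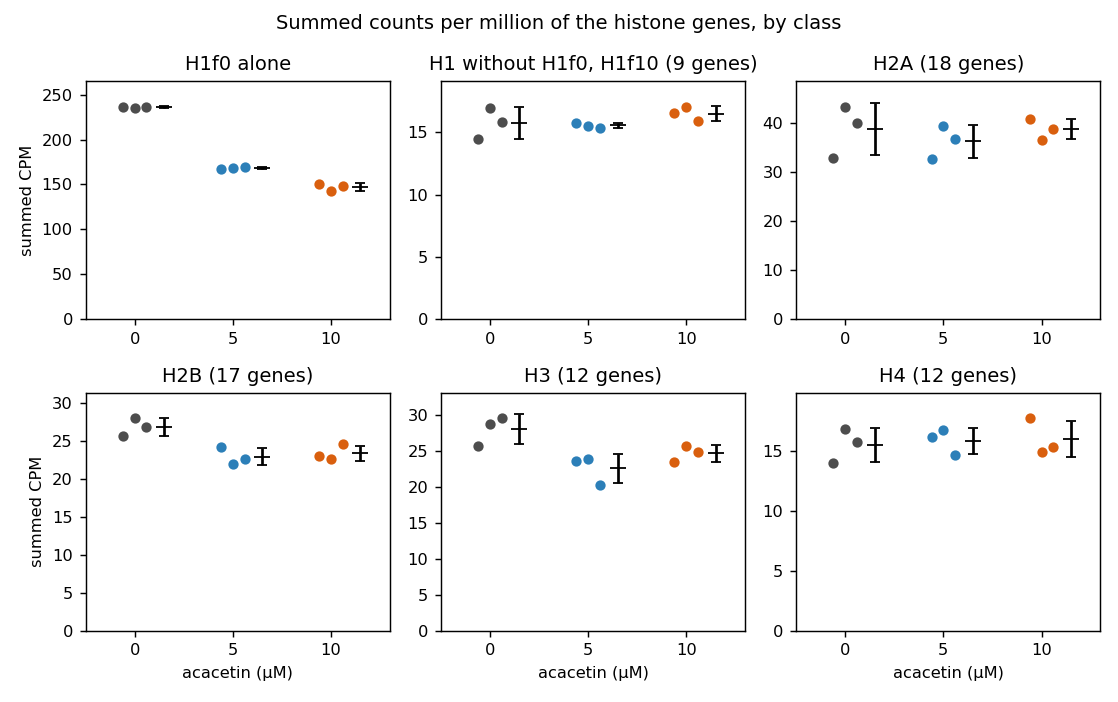
CPM per library (points) with mean ± SD (bars, n = 3) for H1f0 and for the sums of the other H1 genes and of the H2A, H2B, H3 and H4 genes, by acacetin concentration. H1f0 separates the 3 concentrations without overlap, the H2B sum is lower in all 6 treated libraries, and the H2A and H4 sums overlap.

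In the H1 class, H1f2 (H1.2), a somatic linker histone, was next after H1f0 and did not follow it. It stood at 11.5, 12.8 and 11.6 CPM at 0 μM, 12.02, 13.2 and 12.3 CPM at 5 μM, and 12.7, 13.4 and 12.4 CPM at 10 μM. The groups overlapped, with a log2 fold change of 0.07 ± 0.08 at 5 μM (adjusted p = 0.562) and 0.10 ± 0.08 at 10 μM (adjusted p = 0.319). H1f10, the other replication-independent H1, was 6.84, 8.06 and 7.31 CPM at 0 μM, 5.72, 7.40 and 4.79 CPM at 5 μM, and 6.17, 5.21 and 6.05 CPM at 10 μM. All 10 μM libraries lay below all 0 μM libraries, with a log2 fold change of -0.35 ± 0.14 that did not pass the test (adjusted p = 0.0506), and at 5 μM it was -0.30 ± 0.14 (adjusted p = 0.114). H1f10 was highest among treated libraries in 5 μM replicate 2, and with that library and 10 μM replicate 1 left out it was called lower at 5 μM (-0.49 ± 0.14, adjusted p = 0.0146) and at 10 μM (-0.39 ± 0.14, adjusted p = 0.0294).

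H1f4 (H1.4), the fourth by level, was 1.11, 1.74 and 2.15 CPM at 0 μM, 1.53, 0.894 and 1.41 CPM at 5 μM, and 1.35, 1.99 and 1.26 CPM at 10 μM, without separation of the groups. Its log2 fold changes were -0.41 ± 0.30 and -0.14 ± 0.29, with adjusted p of 0.317 and 0.730. H1f1, H1f3 and H1f5 were between 0.50 and 0.74 CPM on average and were not called. H1f6 and H1f9 had no counts in any library, which allows at most 0.0157 CPM over the 9 libraries together (3 counts of 191364417), and H1f7 and H1f8 averaged 0.00501 and 0.0371 CPM.

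H2A genes were the only class with a gene that rose. H2ac19, 1 of a pair of adjacent, near-identical genes with H2ac18, was 1.91, 3.38 and 3.68 CPM at 0 μM, 4.87, 3.94 and 2.77 CPM at 5 μM, and 5.12, 4.42 and 5.55 CPM at 10 μM. Every 10 μM library exceeded every 0 μM library, with a log2 fold change of 0.74 ± 0.22 (adjusted p = 0.00871), while at 5 μM the groups overlapped (0.36 ± 0.22, adjusted p = 0.235). All 100-base windows of its transcript (100%) also occur in other histone transcripts, and 88.1% of those of H2ac18 do, so the division of reads between them is uncertain. H2ac18 was 2.01, 2.19 and 2.07 CPM at 0 μM, 2.19, 2.602 and 4.44 CPM at 5 μM, and 4.57, 2.13 and 2.53 CPM at 10 μM.

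The sum of H2ac18 and H2ac19 does not depend on that division and was 3.92, 5.57 and 5.75 CPM at 0 μM, 7.06, 6.55 and 7.21 CPM at 5 μM, and 9.68, 6.55 and 8.08 CPM at 10 μM. All treated libraries exceeded all 0 μM libraries in this sum, which was put together after the values of its genes were seen and is not tested. H2ac19 lost its call without 0 μM replicate 1, the lowest library (log2 fold change 0.51, adjusted p = 0.0533).

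H2ac15 was the lowest of the tested histone genes, with 10.2, 13.1 and 17.1 counts at 0 μM, 6.14, 6.03 and 4.09 at 5 μM and 6.10, 5.01 and 6.03 at 10 μM. In CPM these were 0.503, 0.647 and 0.718 CPM at 0 μM, 0.286, 0.244 and 0.202 CPM at 5 μM, and 0.301, 0.248 and 0.271 CPM at 10 μM. Neither treated group overlapped with 0 μM, and it fell, with a log2 fold change of -1.34 ± 0.41 at 5 μM (adjusted p = 0.0179) and of -1.18 ± 0.41 at 10 μM (adjusted p = 0.0236). With the libraries holding liver and lung transcripts left out it was called at neither concentration (adjusted p = 0.0669 and 0.0563). Among single libraries, the 5 μM call was lost without 0 μM replicate 3, 5 μM replicate 2 or 5 μM replicate 3, and the 10 μM call without replicate 2 or 3 of either group, with adjusted p up to 0.153 over the alternatives.

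The 3 other leading H2A genes were not called. H2ac7, the highest H2A gene, was 8.80, 11.9 and 9.0 CPM at 0 μM, 7.35, 10.0 and 8.07 CPM at 5 μM, and 10.4, 9.38 and 7.76 CPM at 10 μM. H2ac10 was 2.97, 5.77 and 6.97 CPM at 0 μM, 4.25, 6.06 and 5.45 CPM at 5 μM, and 5.02, 5.66 and 6.18 CPM at 10 μM, and its 0 μM replicate 1 was the lowest of all 9 libraries. H2ac24 was 5.73, 5.62 and 4.56 CPM at 0 μM, 4.01, 4.68 and 4.74 CPM at 5 μM, and 4.42, 5.31 and 5.60 CPM at 10 μM. Log2 fold changes of these genes were -0.24 to -0.01 at 5 μM and -0.11 to 0.09 at 10 μM, and in each of them the groups overlapped. At 5 μM the fold change of H2ac7 was -0.21, and -0.36 with the liver and lung libraries left out (adjusted p = 0.0679). Of the other H2A genes, 8 were tested and not called, with mean levels from 0.670 to 3.58 CPM, and H2ac1, which is known from testis, had no counts in any library.

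H2bc12 had the highest level among the H2B genes and the most even values. Its level was 6.59, 7.12 and 6.63 CPM at 0 μM, 5.77, 5.45 and 5.29 CPM at 5 μM, and 5.47, 5.26 and 5.51 CPM at 10 μM. No treated library reached the lowest 0 μM library. The change was -18.7% at 5 μM (-0.30 ± 0.11, adjusted p = 0.0443) and -20.1% at 10 μM (-0.32 ± 0.11, adjusted p = 0.0228), and both were close to the threshold. The call at 5 μM was lost without any 1 of the 6 libraries compared, and with the liver and lung libraries left out (adjusted p = 0.111). The call at 10 μM was lost with DESeq2 and without 0 μM replicate 2 or 10 μM replicate 2 (adjusted p up to 0.140).

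H2bc9 carried 11.2, 15.3 and 31.6 counts at 0 μM, 7.06, 15.3 and 4.14 at 5 μM and 7.07, 6.83 and 12.9 at 10 μM, or 0.553, 0.747 and 1.35 CPM at 0 μM, 0.334, 0.610 and 0.202 CPM at 5 μM, and 0.351, 0.347 and 0.587 CPM at 10 μM. Replicate 3 at 0 μM was the highest library, and treated and untreated groups overlapped. It was called lower at 5 μM (-1.18 ± 0.44, adjusted p = 0.0470) but not at 10 μM (-1.05 ± 0.44, adjusted p = 0.0572). The 5 μM call was lost without 0 μM replicate 3, where the log2 fold change was -0.72 (adjusted p = 0.322), and also without 0 μM replicate 2 or without replicate 1 or 3 of either treated group. Without the liver and lung libraries it was -1.72 (adjusted p = 0.0254).

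H2bc21 had whole counts in every library and shared no 100-base window with another matched histone transcript, so paralog reads were less of a concern for it. H1f9 and H2bc24 had no transcript to compare. The longest H2bc21 transcript, of 2620 bases, held no such hairpin as described above. Whether H2bc21 stands for the other H2B genes was not tested. It was 3.12, 3.63 and 3.30 CPM at 0 μM, 3.29, 3.09 and 3.08 CPM at 5 μM, and 3.26, 3.47 and 4.38 CPM at 10 μM, with a log2 fold change of -0.09 ± 0.17 at 5 μM and 0.15 ± 0.16 at 10 μM (adjusted p = 0.732 and 0.475). H2bc4 was 2.36, 2.79 and 3.17 CPM at 0 μM, 3.53, 2.15 and 3.73 CPM at 5 μM, and 2.46, 2.38 and 2.80 CPM at 10 μM, and H2bc24 was 3.27, 1.99 and 2.96 CPM at 0 μM, 3.05, 2.76 and 1.46 CPM at 5 μM, and 2.46, 1.69 and 2.21 CPM at 10 μM. Neither was called, and in both the groups overlapped. The log2 fold change of H2bc4 at 5 μM was 0.16, and 0.38 without the liver and lung libraries (adjusted p = 0.167). The other 5 tested H2B genes were not called either. The nearest to the threshold was H2bc8 (log2 fold change -0.67 ± 0.25 at 5 μM, adjusted p = 0.0505), named after its values were seen.

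Of 11 tested H3 genes, 3 were called at 5 μM (27.3%) and 2 at 10 μM (18.2%), all lower. The share called was 33.1% and 47.3% over all tested genes. Among genes within the levels of the tested histone genes other than H1f0, it was 15.8% and 27.8%. H3c13 and H3c15, which encode histone H3 in the chromosome 3 cluster, fell at both concentrations. H3c15 was 1.56, 1.89 and 2.49 CPM at 0 μM, 1.10, 1.34 and 0.706 CPM at 5 μM, and 0.953, 0.596 and 1.13 CPM at 10 μM. The treated libraries were all below the 0 μM libraries, with a log2 fold change of -0.91 ± 0.29 at 5 μM (adjusted p = 0.0237) and -1.15 ± 0.31 at 10 μM (adjusted p = 0.00456).

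H3c13 was 2.16, 1.64 and 2.24 CPM at 0 μM, 0.954, 0.772 and 1.46 CPM at 5 μM, and 1.254, 1.19 and 0.993 CPM at 10 μM, likewise without overlap (-0.94 ± 0.27 at 5 μM, adjusted p = 0.0117, and -0.82 ± 0.27 at 10 μM, adjusted p = 0.0178). Of the 100-base windows in their transcripts, 77.1% of those of H3c13 and 61.6% of those of H3c15 occur in another histone transcript. Their sum was 3.72, 3.53 and 4.73 CPM at 0 μM, 2.05, 2.11 and 2.17 CPM at 5 μM, and 2.21, 1.79 and 2.12 CPM at 10 μM, with a mean of 3.996 ± 0.645 CPM (SD, n = 3) without acacetin, 2.11 ± 0.0585 CPM with 5 μM and 2.04 ± 0.222 CPM with 10 μM. Like the sum of H2ac18 and H2ac19, this sum was put together after the values of its genes were seen and is not tested. Shared windows were counted against all histone transcripts, so the sum may still depend on how reads were divided. With the liver and lung libraries left out, H3c13 lost its call at 5 μM (adjusted p = 0.0721) and kept it at 10 μM (adjusted p = 0.0234). Its 5 μM call was also lost without 0 μM replicate 3 or 5 μM replicate 2 (adjusted p up to 0.0737), and its 10 μM call with DESeq2 and without 0 μM replicate 1, 0 μM replicate 3 or 10 μM replicate 3 (up to 0.0746). The call of H3c15 at 5 μM was lost with DESeq2 and without 5 μM replicate 1, 5 μM replicate 3 or 0 μM replicate 3, where the log2 fold change was -0.70 (adjusted p = 0.144), and its call at 10 μM held under all 18 alternatives.

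H3c3, in the chromosome 13 cluster, was 4.58, 3.19 and 3.72 CPM at 0 μM, 2.58, 2.24 and 1.92 CPM at 5 μM, and 3.36, 2.48 and 3.29 CPM at 10 μM. All 5 μM libraries were below all 0 μM libraries and it fell there (-0.77 ± 0.20, adjusted p = 0.00523), whereas at 10 μM the groups overlapped (-0.33 ± 0.19, adjusted p = 0.166). The difference between 10 and 5 μM was 0.44 ± 0.20 and did not pass the test (adjusted p = 0.192). H3c10, the highest H3 gene, was 6.19, 5.57 and 4.35 CPM at 0 μM, 4.77, 4.55 and 4.03 CPM at 5 μM, and 4.16, 4.81 and 5.42 CPM at 10 μM.

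H3c1 was 2.36, 3.28 and 3.46 CPM at 0 μM, 2.48, 2.81 and 2.52 CPM at 5 μM, and 3.31, 3.08 and 2.53 CPM at 10 μM, and H3c4 was 2.26, 3.19 and 2.49 CPM at 0 μM, 2.38, 3.09 and 1.97 CPM at 5 μM, and 2.26, 2.28 and 2.75 CPM at 10 μM. H3c10, H3c1 and H3c4 overlapped between all groups and were not called, with log2 fold changes of -0.26 to -0.08 at 5 μM and -0.15 to -0.04 at 10 μM. The remaining 5 tested H3 genes were not called, and H3c14, at 0.01003 CPM, was not tested.

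No H4 gene was called at 5 μM, and H4c11 was the only H4 gene called at 10 μM. It had 9.53, 9.69 and 19.7 counts at 0 μM, 16.7, 19.6 and 15.1 at 5 μM and 6.57, 7.36 and 5.37 at 10 μM, or 0.503, 0.498 and 0.845 CPM at 0 μM, 0.811, 0.813 and 0.756 CPM at 5 μM, and 0.351, 0.347 and 0.226 CPM at 10 μM. The 10 μM libraries were below all others, at a log2 fold change of -1.02 ± 0.41 against 0 μM (adjusted p = 0.0492) and -1.36 ± 0.39 against 5 μM (adjusted p = 0.0357). Each of these calls rests on fewer than 20 counts a library, and each was lost with the liver and lung libraries left out (adjusted p = 0.0862 and 0.127). The call against 0 μM was lost without any 1 of the 9 libraries (adjusted p up to 0.254), and that against 5 μM without any 1 of the 6 treated libraries.

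The leading H4 gene, H4c9, was 3.72, 5.03 and 5.45 CPM at 0 μM, 5.68, 4.76 and 5.29 CPM at 5 μM, and 6.47, 5.11 and 5.28 CPM at 10 μM. H4c18 was 2.01, 2.79 and 2.54 CPM at 0 μM, 2.62, 3.86 and 2.17 CPM at 5 μM, and 3.46, 2.68 and 2.12 CPM at 10 μM, and H4c8 was 2.01, 1.94 and 2.37 CPM at 0 μM, 1.91, 1.83 and 2.62 CPM at 5 μM, and 2.41, 1.99 and 2.30 CPM at 10 μM. H4c4, the last of the 4 highest, was 1.81, 2.19 and 1.01 CPM at 0 μM, 1.43, 1.30 and 0.706 CPM at 5 μM, and 1.30, 1.09 and 1.62 CPM at 10 μM. In each of them the groups overlapped. Their log2 fold changes ranged from -0.51 to 0.25 at 5 μM and from -0.29 to 0.24 at 10 μM, and none was called. The 0.25 at 5 μM was that of H4c18, which was -0.03 with the liver and lung libraries left out (adjusted p = 0.945). H4c17 had no counts in any library.

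**Figure D3:**
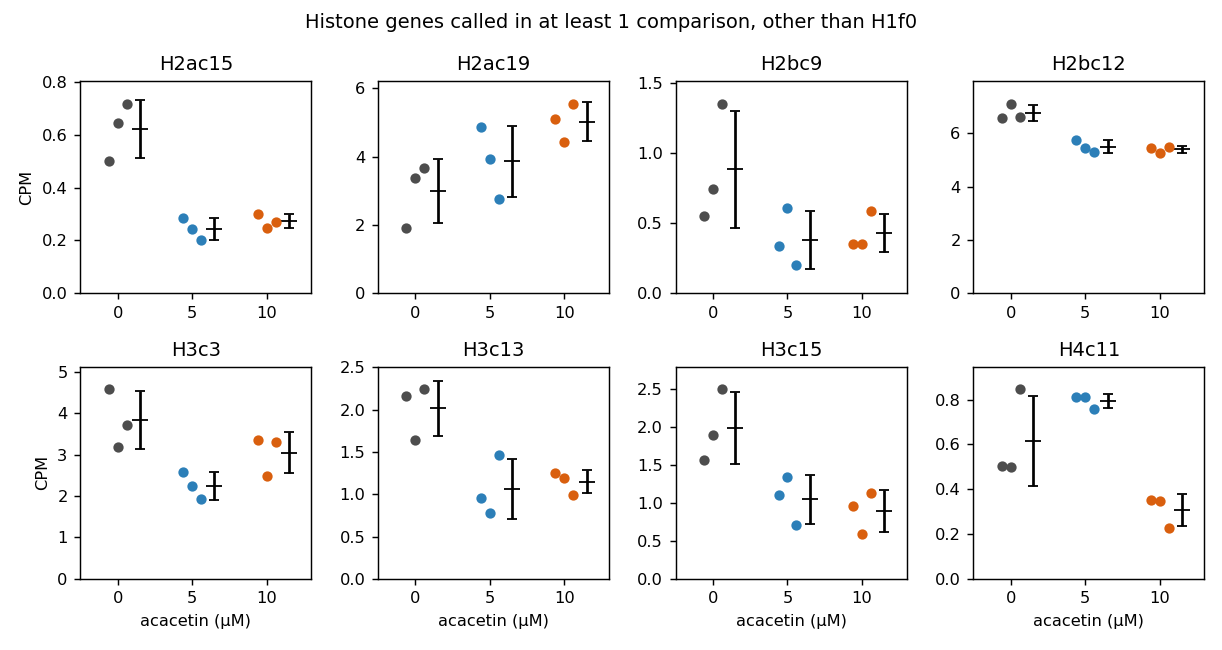
CPM of the 8 histone genes other than H1f0 that passed the test in at least 1 comparison, per library (points) and as mean ± SD (bars, n = 3), by acacetin concentration. H2ac15, H2bc12, H3c13 and H3c15 are lower in all 6 treated libraries, H2ac19 is higher at 10 μM, and H4c11 is low at 10 μM alone.

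The stem-loop type was not the same in the genes that fell. Of the 5 tested genes with the TTTA loop, H2bc12 and H3c3 were called lower at 5 μM, and of 26 with the TTTC loop, H2bc9 and H3c15. Over all tested genes, 16.8% were called lower at 5 μM. The call of H2bc12 held under 6 of 18 alternatives and that of H2bc9 under 7 of 16. H1f0, H2ac15 and H3c13, also called lower at 5 μM, had no hairpin in their annotated transcripts. Median log2 fold changes at 5 μM were -0.22 for the TTTC loop and -0.23 for the TTTA loop, and at 10 μM -0.13 and -0.16. By 3' end, the medians at 5 μM were -0.18 for the 18 genes ending within 100 bases and -0.23 for the 15 with read-through, and at 10 μM -0.08 and -0.16. These groupings were not tested.

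The levels of other RNAs without a poly(A) tail are given beside the histone values. Most of those listed are small RNAs, so their levels need not reflect how far histone mRNAs were captured. Of 133 entries for small nuclear, nucleolar and related RNAs, 130 were under 1 CPM in every library and 47 had no counts, and the list summed to 26.0 to 30.9 CPM at 0 μM, 22.7 to 26.0 CPM at 5 μM and 21.6 to 25.5 CPM at 10 μM. Rpph1, the RNA of RNase P, was 11.7, 12.5 and 13.5 CPM at 0 μM, 9.06, 7.48 and 7.01 CPM at 5 μM, and 6.12, 5.71 and 7.36 CPM at 10 μM and fell (-0.68 ± 0.11 at 5 μM, adjusted p = 1.16e-04, and -0.97 ± 0.12 at 10 μM, adjusted p = 1.39e-06). Rmrp, the RNA of RNase MRP, was 0.302, 1.84 and 1.99 CPM at 0 μM, 0.191, 0.203 and 0.353 CPM at 5 μM, and 0.0502, 0.347 and 0.677 CPM at 10 μM and was also called lower. Its 0 μM replicate 1 was as low as the treated libraries. Snora43, a small nucleolar RNA, went the other way and rose (0.25 ± 0.09 at 5 μM, adjusted p = 0.0413, and 0.34 ± 0.09 at 10 μM, adjusted p = 0.00470). Replicate 1 at 0 μM was the lowest of its group in Rmrp, in H2ac10 and in the class sums. It was the highest of its group in Snora43 and in several histone genes, among them H3c3, H3c10 and H2ac24. The part of capture of such RNAs in the histone values was not tested.

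Replacement histones, most of which are made throughout the cell cycle from polyadenylated mRNAs, were far more abundant in these libraries. The 9 genes listed summed to 3074 ± 36.3 CPM (SD, n = 3) without acacetin, 2913 ± 36.6 CPM with 5 μM and 2896 ± 79.5 CPM with 10 μM, against 125.0, 113 and 119 CPM for the 68 histone genes without H1f0 and H1f10. H2ax (H2A.X), on this list, also has a stem-loop mRNA made in S phase. At 10 μM, 6 of the 9 fell and 3 rose (100% called, against 47.3% of all tested genes), and at 5 μM 4 fell and 1 rose (55.6%, against 33.1%). H2az1 (H2A.Z), found at promoters, was 645, 666 and 657 CPM at 0 μM, 582, 562 and 576 CPM at 5 μM, and 593, 545 and 553 CPM at 10 μM and fell at 10 μM (-0.22 ± 0.03, adjusted p = 1.37e-05). Cenpa, the histone H3 variant of centromeres, fell too (-0.24 ± 0.03, adjusted p = 4.37e-06), as did H3f3b, a gene for H3.3 (-0.16 ± 0.03, adjusted p = 5.22e-05). H2aj rose at both concentrations, from 188 ± 4.38 CPM at 0 μM to 227 ± 9.78 CPM at 10 μM (0.27 ± 0.03, adjusted p = 3.46e-06), and Macroh2a1, a variant with a large carboxy-terminal domain, rose at 10 μM (0.17 ± 0.03, adjusted p = 1.33e-04).

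Genes that act on histone genes and their mRNAs changed by small amounts with small errors. The share over all tested genes includes low genes, which were called less often. At 0.380 to 12.4 CPM it was 15.8% at 5 μM and 27.8% at 10 μM. All 8 genes of the transcription list, and most genes of the other related lists, exceeded 10 CPM in every library. For them the share over all tested genes is a low background, and no share at their level was computed. In the transcription list of 8 genes, 2 fell and 1 rose at 5 μM (37.5% called, against 33.1% of all tested genes), and 3 fell and 2 rose at 10 μM (62.5%, against 47.3%). Ccne1, cyclin E1, whose kinase complex phosphorylates NPAT, was 86.6, 81.0 and 85.3 CPM at 0 μM, 71.4, 67.0 and 68.6 CPM at 5 μM, and 64.1, 64.3 and 61.7 CPM at 10 μM and fell at both concentrations (-0.29 ± 0.04 and -0.41 ± 0.04, adjusted p = 2.48e-05 and 1.52e-07). Ccne2 fell as well (-0.33 ± 0.07 at 10 μM, adjusted p = 6.39e-04), as did Npat, the coactivator of histone genes, at 10 μM only (-0.11 ± 0.05, adjusted p = 0.0479). Hinfp, the H4 promoter factor, rose at both (0.19 ± 0.05 and 0.16 ± 0.05, adjusted p = 0.00854 and 0.0176), and Pou2f1, which encodes the octamer factor Oct1, rose at 10 μM (0.14 ± 0.05, adjusted p = 0.0220).

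In the list for 3' end processing, 6 of 16 genes fell and none rose at 5 μM (37.5% called), and 11 fell and 1 rose at 10 μM (75.0%). Slbp, the stem-loop binding protein, was 192, 188 and 187 CPM at 0 μM, 175, 176 and 177 CPM at 5 μM, and 163, 165 and 164 CPM at 10 μM. Its 3 groups did not overlap, and it was lower at 5 μM (-0.10 ± 0.03, adjusted p = 0.00744), at 10 μM (-0.21 ± 0.03, adjusted p = 7.60e-06) and at 10 μM against 5 μM (-0.10 ± 0.03, adjusted p = 0.0288). Cpsf2 and Cpsf3, subunits of the cleavage complex, of which the latter is the endonuclease, fell, with -0.33 ± 0.03 and -0.21 ± 0.03 at 10 μM (adjusted p = 2.41e-07 and 3.40e-05), and Snrpd3, an Sm protein of the U7 particle and of spliceosomal particles, fell likewise (-0.28 ± 0.04, adjusted p = 6.46e-06). Most of these proteins also serve the processing of other mRNAs.

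For translation and decay of histone mRNA, 1 of 8 genes rose and none fell at 5 μM (12.5% called), and 2 rose and 1 fell at 10 μM (37.5%), shares below the 33.1% and 47.3% of all tested genes. Tut7, a terminal uridylyltransferase, rose at both concentrations (0.24 ± 0.04 and 0.23 ± 0.04, adjusted p = 4.04e-05 and 2.96e-05), Mif4gd, a partner of SLBP in translation, rose at 10 μM (0.18 ± 0.05, adjusted p = 0.00619), and Exosc10, a nuclease of the exosome, fell at 10 μM (-0.16 ± 0.03, adjusted p = 3.33e-04).

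Of 20 histone chaperones and related factors, 11 fell and 2 rose at 5 μM (65.0% called), and 12 fell and 2 rose at 10 μM (70.0%). Nasp, which buffers soluble H3 and H4, was 254, 256 and 262 CPM at 0 μM, 218, 217 and 215 CPM at 5 μM, and 197, 195 and 198 CPM at 10 μM, without overlap between the 3 groups (-0.25 ± 0.03 and -0.39 ± 0.03 against 0 μM, adjusted p = 1.53e-06 and 1.70e-09). Rbbp7 and Supt16, the large subunit of FACT, fell at both concentrations, with -0.31 ± 0.03 and -0.25 ± 0.03 at 10 μM (adjusted p = 9.80e-08 and 1.58e-06). Chaf1a, the large subunit of CAF-1, which deposits H3 and H4 behind replication forks, fell as well (-0.27 ± 0.04 at 10 μM, adjusted p = 4.16e-06). Cabin1, which joins the complex that deposits H3.3 outside S phase, rose at both concentrations (0.17 ± 0.04 and 0.30 ± 0.04, adjusted p = 0.00324 and 6.74e-06). Hira and Ubn1, of the same complex and named for that reason, went opposite ways. Hira fell at both concentrations (-0.11 ± 0.03 and -0.15 ± 0.03, adjusted p = 0.0138 and 0.00111), and Ubn1 rose at both (0.24 ± 0.03 and 0.22 ± 0.03, adjusted p = 1.52e-05 and 1.90e-05).

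Of 23 genes for DNA replication and nucleotide supply, 15 fell at 5 μM (65.2%) and 18 at 10 μM (78.3%), and none rose. Rrm2, the S phase subunit of ribonucleotide reductase, was 325, 328 and 328 CPM at 0 μM, 275, 269 and 271 CPM at 5 μM, and 254, 253 and 240.2 CPM at 10 μM and had the largest fall in the list (-0.27 ± 0.03 and -0.39 ± 0.03, adjusted p = 9.67e-07 and 2.56e-09). The medians of this list were -0.09 and -0.16 at 5 and 10 μM, beside -0.20 and -0.14 for the 50 histone genes and 0.00 for all tested genes. These genes were each above 10 CPM in every library and had SEs mostly near 0.03, so small changes were resolved in them that would lie within the error of most histone genes.

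**Figure D4:**
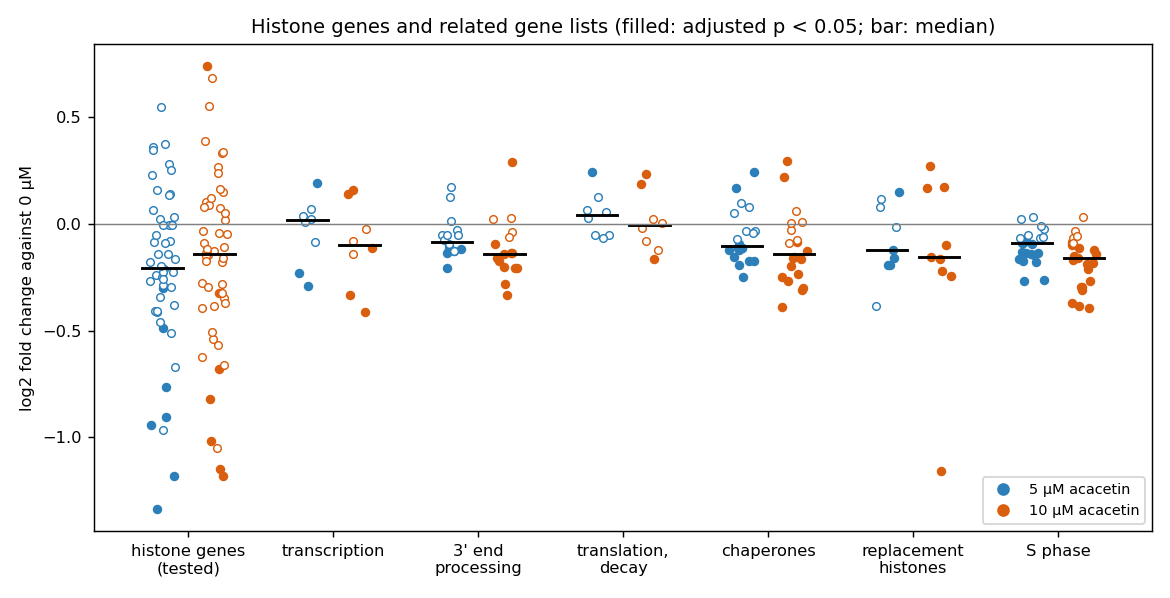
Log2 fold change of each tested gene at 5 μM (blue) and 10 μM (orange) acacetin against 0 μM, for the histone genes and 6 related lists, with filled points for an adjusted p under 0.05 and a bar at the median. The histone genes spread widely around a median below 0 with few filled points, whereas the S phase genes are tightly grouped and mostly filled, with medians of -0.09 and -0.16.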

How the data were processed

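RNA-seq was performed by the authors on 9 libraries (3 per acacetin concentration) of activated mouse CD4+ T cells. The deposited values are estimated counts per gene, not normalized, of which 24.1% are not whole numbers. The submitters' processing notes name build GRCm39, but no source read here names the counting program or its settings. The methods name HISAT2, StringTie and DESeq2. The culture medium is IMDM in the methods and RPMI 1640 in the labels. Of 25757 entries, 964 share 70 symbols and were kept as separate entries.

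Counts were rounded and tested with edgeR 4.0.16 (TMM factors, filterByExpr, quasi-likelihood test, all 9 libraries in 1 fit) in R 4.3.3. Benjamini-Hochberg adjustment was over 12185 genes, and a gene was called at an adjusted p under 0.05. Levels are CPM with TMM factors. The members and lists were chosen with earlier results of these data known. Named were, in each class, the 4 genes with the highest mean CPM and every called gene, and up to 5 called genes of each other list by smallest adjusted p. Fits were tested on simulated data. Replicates of a group differed by more than sampling noise (chi-square per gene 2.00 to 5.45). Limits for genes without counts cover counting error only. Alternatives were RLE factors, library totals, other filters, DESeq2 1.42.0, fits to 2 groups, a replicate block and fits without single libraries. Sequences are from GENCODE M21 and RefSeq (GRCm38), matched by symbol and older symbols.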

Additional observations from a re-analysis of the deposited data

How the results depend on the processing

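The calls for H1f0 in all 3 comparisons, for H3c3 at 5 μM and for H3c15 at 10 μM held under all 18 alternatives, and no named gene reversed a called direction. The 7 genes called at 5 μM became 3 with DESeq2 in either form (H1f0, H3c3 and H3c13) and 2 to 8 when single libraries were left out, with 2 without 0 μM replicate 3 and 3 without 5 μM replicate 3. The 7 called at 10 μM became 3 with DESeq2 (H1f0, H2ac19 and H3c15) and 4 to 7 without single libraries, with 4 without 0 μM replicate 3. Between 10 and 5 μM, 2 genes became 1 (H1f0) with no filter, with at least 10 counts in every library, with DESeq2, with the replicate block, without both libraries holding liver or lung transcripts, and without any single treated library (range 1 to 2). H4c11 at 10 μM kept its call under 1 of the 16 alternatives that gave an adjusted p. H2bc12 at 5 μM kept it under 6 of 18 and H2bc9 under 7 of 16.

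Same-numbered replicates did not deviate together (r from -0.03 to 0.09 over 9 pairs), and the replicate block left 5 genes called at 5 μM, 6 at 10 μM and 1 between them. The log2 ratio of summed CPM over all 70 genes (-0.36 at 5 μM, -0.44 at 10 μM, -0.08 between them) became -0.14, -0.065 and 0.076 without H1f0 and H1f10, and -0.15, -0.080 and 0.071 without H1f0 alone. For class H1 (-0.45, -0.61 and -0.16), it became -0.017, 0.068 and 0.085 without H1f0 and H1f10, and -0.10, -0.053 and 0.051 without H1f0. At 5 μM it was -0.43 with library totals. Depth limits most of these genes, since their median mean level was 2.00 CPM and the median SE 0.27 on the log2 scale at 5 μM.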
